A study of Mus musculus with 4 samples.

Results

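The S100 genes encode small proteins that bind calcium through a pair of EF-hand loops and then attach to other proteins. The 10 members described here are S100a1, S100a4, S100a6, S100a8, S100a9, S100a10, S100a11, S100a14, S100a16 and S100g. They were chosen by symbol, and all 10 were among the 32289 features counted in single cells of mouse lung tumours. S100a2, S100a3, S100a5, S100a7a, S100a13, S100b, S100z and S100pbp, 8 related symbols among the features, were not members and are described once, near the end. Single cells came from macroscopic tumours of mice that all carried p53frt, Rosa-FSF-CreERT2 and Hnf4aflox, together with a further Flp-activated tumour allele. Tumours were started by adenovirus carrying FlpO under a surfactant protein C promoter (mSPC-FlpO), which directs the recombinase to alveolar type 2 cells. At 10 weeks mice received tamoxifen, which activates CreERT2 and so the deletion of floxed Hnf4a, or vehicle, and cells were collected after a further 2 weeks. Each suspension was split, and 1 portion was depleted of CD45-positive (leukocyte) and CD31-positive (endothelial) cells. The 4 groups (vehicle or tamoxifen, each before or after depletion) held 1 library each, so no p-value is given and no difference could be set against a spread between animals.

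S100 proteins have distinct partners. S100a8 and S100a9 pair to form calprotectin, an abundant cytosolic complex of neutrophils that is released at inflammation and signals through Tlr4 and Ager (RAGE). S100a10 binds annexin A2, S100a11 binds annexin A1, and S100a6 (calcyclin) binds annexins and Cacybp. S100a4 binds non-muscle myosin and is commonly used as a fibroblast and macrophage marker, S100a1 is best known in muscle as a partner of the ryanodine receptor, and S100g (calbindin D9k) buffers calcium in absorptive epithelia.

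In GENCODE M21 (GRCm38) 9 members lie on chromosome 3 and S100g on chromosome X. S100a1, S100a14, S100a16, S100a4, S100a6, S100a8 and S100a9 fall within 184688 bp, and S100a8 (chromosome 3, 90668978 to 90670035, plus strand) and S100a9 (90692632 to 90695721, minus strand) are separated by 22596 bp. S100a11 (93520488 to 93526287) and S100a10 (93555080 to 93564643) lie further along the chromosome, 28792 bp apart and both on the plus strand. S100g (chromosome X, 162961992 to 162964599, minus strand) overlaps Ctps2 on the other strand, and the sources used here do not say whether counting used strand. Whether any reads of Ctps2 were counted as S100g was not tested. S100a4 (90603771 to 90606045, plus strand) overlaps Gm42674, a gene model of the same strand that has no row among the features. The 250 bases before the RefSeq start (GRCm38.p6) are shown for both calprotectin genes, S100a11 and S100g. Among classes with at least 20 cells in a library, both calprotectin genes and S100a11 were highest in neutrophil-like cells. S100g was highest in epithelial-like cells, and among epithelial clusters in an alveolar type 2-like one. The bases are given 5′ to 3′ on the gene's strand, and capitals mark every match to the searched motifs. S100a8 is chr3:90668821-90669070 (plus), S100a9 is chr3:90695722-90695971 (minus), S100a11 is chr3:93520246-93520495 (plus) and S100g is chrX:162964600-162964849 (minus).
S100a8: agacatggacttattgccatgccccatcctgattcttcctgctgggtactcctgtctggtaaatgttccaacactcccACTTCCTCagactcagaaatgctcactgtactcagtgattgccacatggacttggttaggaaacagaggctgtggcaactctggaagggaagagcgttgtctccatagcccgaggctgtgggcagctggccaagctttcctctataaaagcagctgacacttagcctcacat
S100a9: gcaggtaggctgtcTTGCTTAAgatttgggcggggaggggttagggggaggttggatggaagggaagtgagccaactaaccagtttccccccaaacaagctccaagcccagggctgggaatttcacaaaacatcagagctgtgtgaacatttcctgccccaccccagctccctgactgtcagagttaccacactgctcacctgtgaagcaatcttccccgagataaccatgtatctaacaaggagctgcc
S100a11: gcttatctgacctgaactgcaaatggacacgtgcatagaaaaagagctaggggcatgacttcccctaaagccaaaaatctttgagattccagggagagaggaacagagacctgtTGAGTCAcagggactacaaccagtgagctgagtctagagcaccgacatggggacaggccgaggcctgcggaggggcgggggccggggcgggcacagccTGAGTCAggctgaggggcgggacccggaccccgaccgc
S100g: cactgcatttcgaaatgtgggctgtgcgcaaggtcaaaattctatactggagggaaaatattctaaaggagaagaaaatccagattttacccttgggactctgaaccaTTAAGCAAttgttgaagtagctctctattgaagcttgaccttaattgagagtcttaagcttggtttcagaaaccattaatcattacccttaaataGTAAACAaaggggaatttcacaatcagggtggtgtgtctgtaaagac

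Motifs were searched as letters on both strands from 250 bases before to 50 after each start: C/EBP as TTGCNNAA, AP-1 as TGANTCA, PU.1 as GAGGAAGT, HNF4 as CAAAGTCCA, NKX2-1 as CAAGTG and forkhead as TGTTTAC. S100a8 held a PU.1 match at -172 and S100a9 a C/EBP match at -236, counted from the start. S100a11 held a pair of AP-1 matches, at -136 and -38. S100g held a C/EBP match at -142 and a forkhead match at -47. Of the other members with a window, S100a16 held 1 AP-1 match at -192, S100a6 1 NKX2-1 match at -117 and S100a4 1 PU.1 match 18 bases after its start. Among all 32851 promoter windows searched, 10.8% held the C/EBP letters, 7.81% AP-1, 3.20% PU.1, 0.475% HNF4, 13.6% NKX2-1 and 3.65% forkhead. A match describes letters in a window and says nothing of binding. RefSeq windows were matched for 8 of the 10 members.

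Kept cells numbered 7079 and 6923 in the vehicle libraries before and after depletion and 6111 and 7358 in the libraries labelled tamoxifen, with a median of 9302 to 17733 UMIs (unique molecular identifiers, each standing for 1 captured transcript) per cell. Cell classes were named from fixed marker genes that include no S100 gene, on clusters made without any S100 gene. Epithelial-like cells numbered 1012 and 5900 (vehicle before and after) and 970 and 6241 (labelled tamoxifen). After depletion the libraries held 7 neutrophil-like cells each, so leukocyte values come from the libraries before depletion. Hnf4a, the floxed gene, stood at 50.4 and 48.3 CPM (UMIs of the gene for every 1000000 UMIs of the class) in epithelial-like cells of the vehicle libraries before and after depletion, against 82.9 and 79.5 CPM with the tamoxifen label. Hnf4a UMIs were thus higher in the libraries labelled tamoxifen, against that label, and a 3′ count need not lie in the deleted exons, so every direction below is for libraries as labelled. From 10 to 18 barcodes were shared by any 2 libraries, at most 0.2745% of the smaller one.

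S100a8 and S100a9 were counted mainly in neutrophil-like cells. S100a8 stood at 15438 CPM (exact Poisson 95% interval 15283 to 15593, 658 cells) in the vehicle library and 15268 CPM (15093 to 15446, 508 cells) in the library labelled tamoxifen, both before depletion. S100a9 stood at 27480 CPM (27274 to 27687) and 27258 CPM (27023 to 27494) in the same libraries. These intervals, like all others here, cover counting error only. Summed over the whole class the 2 libraries were nearly equal for both genes, and the S100a8 to S100a9 ratio was 0.562 and 0.560. The classes that followed were far lower: B-like cells held 590.9 and 79.6 CPM of S100a8 and 1055 and 115 CPM of S100a9, and endothelial-like cells before depletion held 195 and 163 CPM and 261 and 339 CPM. After each cell was thinned to 2000 UMIs, 84.8% of neutrophil-like cells (Clopper-Pearson 95% interval 81.6 to 87.6) held an S100a8 UMI in the vehicle library and 84.3% (80.4 to 87.6) in the library labelled tamoxifen. In T-like cells of the same libraries, taken as background, the share was 1.86% (1.16 to 2.83) and 2.67% (1.59 to 4.19). Without thinning the shares were 85.6% and 84.3% in neutrophil-like and 6.24% and 8.90% in T-like cells. Thinning left out 60 and 88 neutrophil-like and 43 and 46 T-like cells as too shallow, and their median depths before thinning were 3421 and 3622 UMIs against 5807 and 6060.

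Neutrophil-like cells fell into 2 clusters that differed in the level of calprotectin. Cluster 24, led by Retnlg, Csf3r and Cxcr2, held S100a8 at 30691 CPM (30271 to 31115, 166 cells, vehicle) and 42806 CPM (42181 to 43437, 100 cells, labelled tamoxifen). Cluster 19, led by G0s2, Acod1, Csf3r and Mmp9, held 9844 CPM (9700.0 to 9989, 492 cells) and 7437 CPM (7298 to 7577, 408 cells). S100a9 followed the same order, at 61586 and 78702 CPM in cluster 24 against 14972 and 12626 CPM in cluster 19. S100a6 was also higher in cluster 24, at 3849 and 5190 CPM against 1287 and 1428 CPM, and S100a11 stood at 3954 and 5321 CPM against 1157 and 1315 CPM. In neither library did the clusters overlap for these 4 genes. Clusters were made from other genes of the same cells, so this is a description and no test.

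In several other classes most S100a8 and S100a9 UMIs sat in few cells. Before depletion, 1 B-like cell of the vehicle library held 937 of 1456 S100a8 UMIs (64.4%) and 1708 of 2600 S100a9 UMIs (65.7%). That cell also held 1307 UMIs of the 10 neutrophil markers, against a median of 0 in its class. In fibroblast-like cells of the same library 1 cell held 77.1% of the S100a8 UMIs and 147 neutrophil marker UMIs. The 5 cells with most held 90.9% of S100a8 UMIs in B-like, 94.95% in fibroblast-like and 86.5% in endothelial-like cells of that library, against 17.8% in neutrophil-like cells. For S100a9 the shares were 92.2%, 93.8%, 84.3% and 16.97% in the same order. The concentration was not general: in dendritic-like cells 5 cells held 80.3% of S100a8 UMIs in the vehicle library but 16.7% in the library labelled tamoxifen. After depletion, fibroblast-like and endothelial-like cells were at 0 or 1 S100a9 UMIs per library, and 0 of 167 endothelial-like cells in the vehicle library allows a share of cells with a UMI of up to 1.80% (3 counts of the cells), which is no limit on cells that express the gene.

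**Figure D1:**
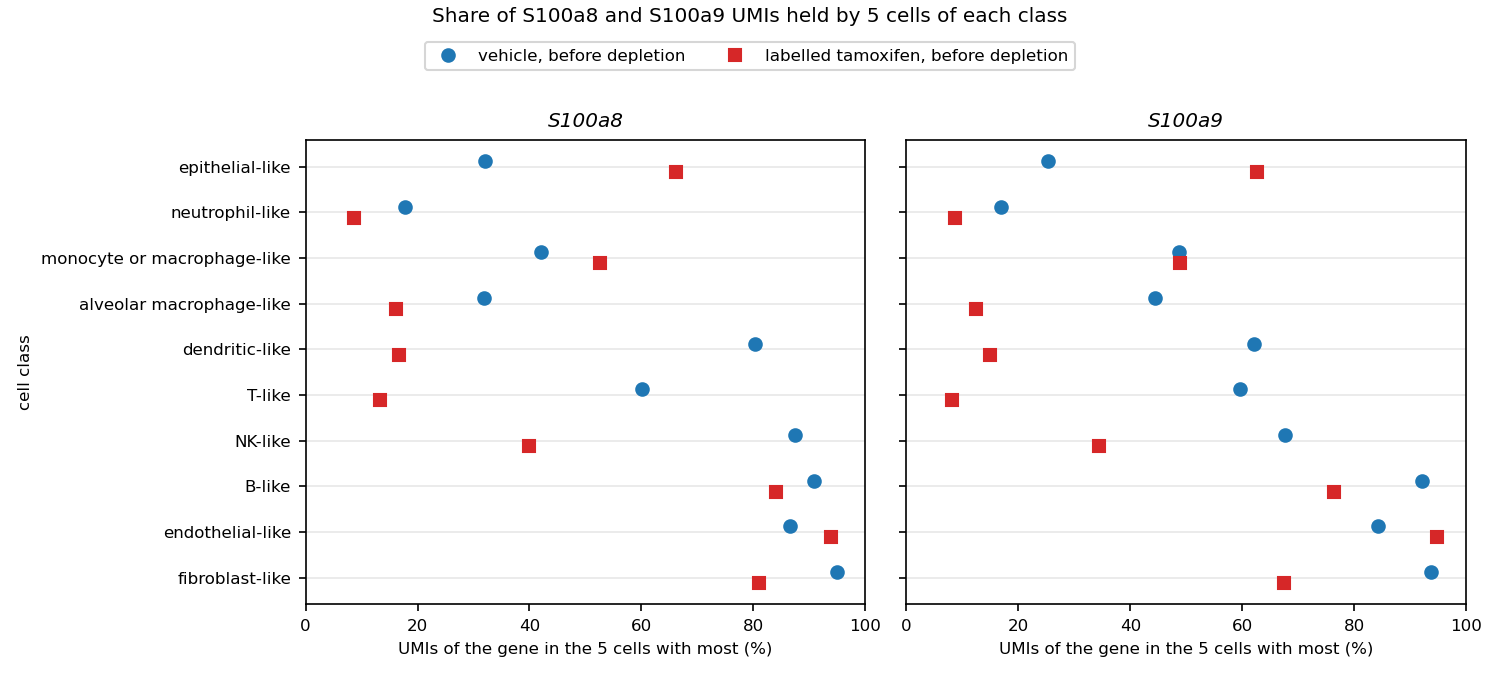
Share of all S100a8 (left) and S100a9 (right) UMIs of a class that sits in the 5 cells with most (x axis, %), for 10 cell classes (y axis) in the 2 libraries before depletion; each point is 1 library. In neutrophil-like cells the vehicle library lies at 17.8% for S100a8, while B-like, endothelial-like and fibroblast-like cells of that library lie at 90.9%, 86.5% and 94.95%.

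In epithelial-like cells calprotectin was low and moved with the depletion. S100a9 stood at 14.9 CPM (432 UMIs) and 34.0 CPM (1026 UMIs) before depletion, in the vehicle library and the library labelled tamoxifen, and at 0.108 CPM (13 UMIs) and 0.640 CPM (73 UMIs) after it. S100a8 stood at 11.2 and 17.6 CPM before and 0.746 and 0.561 CPM after depletion. Of the 73 S100a9 UMIs in the library labelled tamoxifen after depletion, 63 were in 1 cell, which held 1 neutrophil marker UMI (class median 1) and 21 UMIs of the surfactant gene Sftpc (class median 1137). Before depletion 5 cells of that treatment held 62.7% of the S100a9 UMIs, and the cell with most held 60 neutrophil marker UMIs against a class median of 2. The summed neutrophil markers in epithelial-like cells ranged from 106 to 254 CPM over the 4 libraries, but Hdc alone gave 103 to 229.8 CPM of that, and Clec4d was at 0 in both libraries after depletion. The part of neutrophil RNA in the epithelial S100a8 and S100a9 counts was not tested.

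S100a4, the myosin partner, was highest in dendritic-like, T-like, monocyte or macrophage-like and fibroblast-like cells. Dendritic-like cells held 1941 and 1994 CPM (vehicle and labelled tamoxifen, before depletion), above every other class. T-like cells at 866 and 1124 CPM and monocyte or macrophage-like cells at 1008 and 946 CPM overlapped each other. Fibroblast-like cells held 587 and 714 CPM (vehicle before and after depletion) and 468 and 704 CPM (labelled tamoxifen). Neutrophil-like, NK-like, B-like and plasma-like cells were much lower, between 45.1 and 85.8 CPM. Epithelial-like cells ranked last, overlapping endothelial-like cells, at 17.1 and 8.51 CPM (vehicle) and 12.975 and 2.35 CPM (labelled tamoxifen).

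Within the leukocytes S100a4 varied by cluster. Dendritic-like cluster 6, led by Ccl22, Ccl17 and Fscn1, held 2271 and 2861 CPM, whereas cluster 29, led by Siglech, held 76.3 and 95.9 CPM. Cluster 26, led by Xcr1 and Clec9a, held 36.5 CPM in the library labelled tamoxifen, the only one with 50 of its cells. Monocyte-type cluster 28, led by F13a1 and Plac8, held 1968 and 2238 CPM against 926 and 821 CPM in the C1qa-led cluster 5. Cluster 28 also held S100a8 at 379 and 159 CPM against 33.2 and 11.9 CPM in cluster 5. Alveolar macrophage-like clusters 3 and 4 held 116 and 112 CPM and 191 and 315 CPM of S100a4, against 1087 and 885 CPM in cluster 25, which was led by the proliferation genes Top2a and Mki67.

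The annexin-binding members were counted in most classes. S100a10 was highest in NK-like cells (1355 and 1477 CPM) and T-like cells (1357 and 1414 CPM), which overlapped, and lowest in neutrophil-like cells (45.5 and 54.0 CPM). Among T-like cells it stood at 1941 and 2197 CPM in cluster 14, led by Ctla4 and Tnfrsf4, at 1735 and 1902 CPM in cluster 0, led by Trdc and Il17a, and at 986 and 1089 CPM in cluster 1, led by Skap1 and Trbc2. S100a11 ran in the other direction at its upper end: neutrophil-like cells held 1908 and 2202 CPM, dendritic-like 1422 to 1504 CPM, fibroblast-like 1158 to 1312 CPM and epithelial-like 898 to 967 CPM, with no overlap between these 4 classes. S100a6 was highest in fibroblast-like cells, from 2499 to 3469 CPM over the 4 libraries. Neutrophil-like cells (1974 and 2261 CPM) and epithelial-like cells (1367 to 2480 CPM) came next and overlapped.

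S100a14, S100g and S100a16 were genes of the epithelium or of structural cells. S100a14 stood at 456 and 675 CPM in epithelial-like cells of the vehicle libraries before and after depletion and at 397 and 364 CPM with the tamoxifen label. Endothelial-like cells (5.54 to 104.5 CPM) and fibroblast-like cells (12.8 to 137 CPM) came next and overlapped, below every epithelial value. S100g stood at 315 and 284 CPM (vehicle) and 298 and 301 CPM (labelled tamoxifen) in epithelial-like cells, a narrow range, and at no more than 65.5 CPM in any other class. S100a16 was highest in endothelial-like cells, at 233 and 328 CPM (vehicle before and after) and 281 and 297 CPM (labelled tamoxifen). Fibroblast-like (113 to 155 CPM) and epithelial-like cells (106 to 144 CPM) overlapped for S100a16, and the highest leukocyte value was 4.64 CPM. Among classes with at least 20 cells in a library, S100a1 was highest in alveolar macrophage-like cells, at 534.5 and 527 CPM before depletion. Epithelial-like cells followed at 205 to 216 CPM. S100a1 stood at 828 and 865 CPM in alveolar macrophage-like cluster 3, led by Chil3 and Ear2, at 523 and 439 CPM in cluster 4 and at 187 and 247 CPM in cluster 25.

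**Figure D2:**
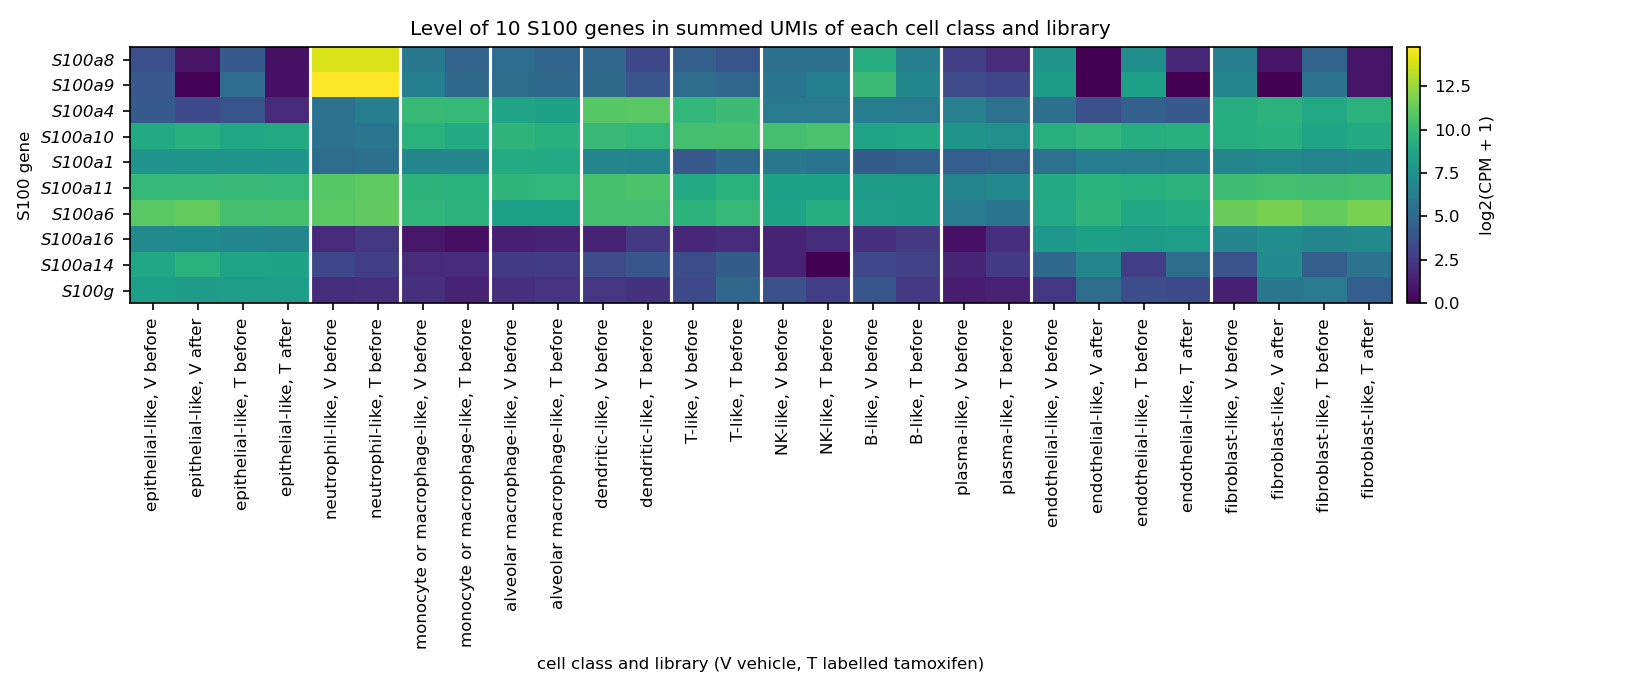
Colour gives log2(CPM + 1) of each of the 10 S100 genes (rows) in the summed UMIs of each cell class and library with at least 20 cells (columns; V vehicle, T labelled tamoxifen). S100a8 and S100a9 are brightest in the neutrophil-like columns, and S100a14 and S100g in the epithelial-like columns.

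Epithelial cells fell into 10 clusters, 8 of them in the epithelial-like class. Clusters 9 (Mcpt2, Tff1) and 12 (Pyy, Hmga2) held Epcam in 99.01% and 96.7% of cells but had Mcpt8, a marker fixed for mast cells and basophils, among their 10 leading genes against all other cells, and were left unnamed; they are described here and kept out of the class. The other clusters included 8 (Ttr, Agr2), 10 (Procr, Krt7), 11 (alveolar type 1-like: Rtkn2, Hopx) and 13 (alveolar type 2-like: Bex2, Zmat4). Clusters 15 (alveolar type 2-like: Lyz1, Scd1), 17 (cycling-like: Ube2c, Cdk1), 22 (unnamed state: Dlk1, Bpifa1) and 23 (airway secretory-like: Scgb3a2, Spink5) completed the set. By fixed markers of epithelial states, cluster 8 scored highest as gastric or intestinal. Clusters 9, 10 and 12 scored highest as transitional (Cldn4, Krt7, Krt19, Sfn, Itgb6 and Lgals3). None of those markers was among their 10 leading genes against other epithelial cells. Tumour cells were not separated from other epithelium.

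S100a6 differed widely over these clusters. Its median over libraries was 7186 CPM in cluster 12 (6132 to 7855) and 6623 CPM in cluster 10 (6316 to 6887), and these overlapped. Lower medians followed in clusters 9 (3670 CPM), 8 (2972 CPM), 11 (2537 CPM) and 17 (1212 CPM). The lowest were in clusters 23 (579 CPM), 22 (516 CPM), 13 (364 CPM, 319 to 498) and 15 (148 CPM, 128 to 188). The top median was 48.5 times the lowest, and cluster 15 overlapped no other. S100a14 also had its highest medians in clusters 10 and 12, with 1497 CPM in cluster 10 (1321 to 1998) and 1203 CPM in cluster 12 (962 to 1461), which overlapped. Its lowest was 47.4 CPM in cluster 15 (38.1 to 55.0), 31.6 times below cluster 10. S100a10 (1281 CPM in cluster 12, 186 CPM in cluster 15) and S100a16 (433 CPM in cluster 10, 53.8 CPM in cluster 15) were likewise lowest in cluster 15, by 6.89 and 8.06 times. S100a11 was highest in clusters 12 (2274 CPM) and 10 (2059.5 CPM), then 11 (1632 CPM), but lowest in clusters 8 (592 CPM) and 23 (583 CPM), which overlapped each other.

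S100g ran the other way. It was highest in cluster 15 (916 CPM, 728 to 1124) and cluster 23 (629.6 CPM, 617 to 642), and lowest in cluster 12 (18.6 CPM, 7.88 to 34.0), 49.2 times below cluster 15. Cluster 13, also alveolar type 2-like, held 185 CPM (166 to 223). Clusters 15 and 23 overlapped neither each other nor any other cluster, and neither did cluster 12. S100a1 was the flattest of these members, from 359 CPM in cluster 10 to 136 CPM in the cycling-like cluster 17, a 2.63-fold range with neighbours mostly overlapping. S100a4 stayed between 1.61 and 20.4 CPM as a median, and for S100a4, S100a8 and S100a9 every neighbour in the order overlapped. Over the 36 cluster and library sums, S100a6 correlated with S100a14 (Pearson r = 0.95) and S100a10 (r = 0.95), and S100g correlated negatively with S100a6 (r = -0.62), S100a10 (r = -0.70) and S100a14 (r = -0.64). These sums share libraries and depth, and the correlations are descriptions.

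**Figure D3:**
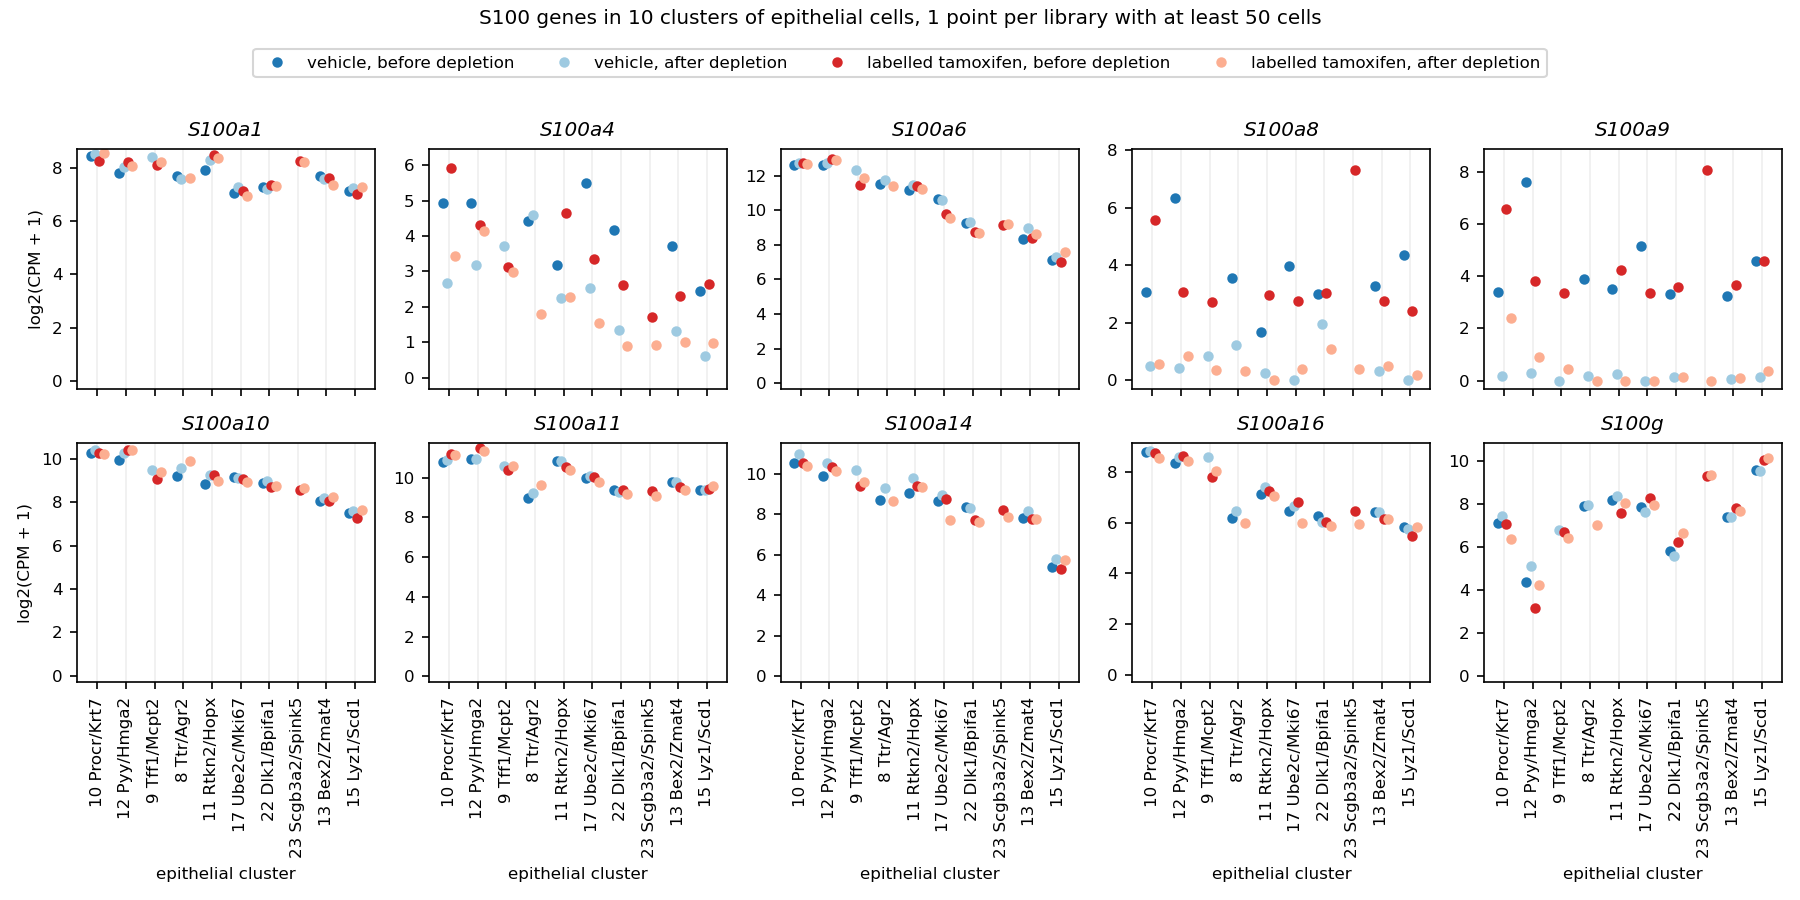
Level of each S100 gene, as log2(CPM + 1) (y axis), in the 10 epithelial clusters (x axis, cluster number and leading genes); each point is 1 library with at least 50 cells of that cluster. S100a6, S100a10, S100a14 and S100a16 are lowest in cluster 15 at the right, where S100g is highest at 916 CPM.

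Single cells showed the same unevenness. With each epithelial-like cell thinned to 2000 UMIs, the share with an S100a6 UMI was 41.7% (38.5 to 44.9) and 55.1% (53.8 to 56.4) in the vehicle libraries before and after depletion. It was 38.5% (35.5 to 41.7) and 42.4% (41.2 to 43.6) in the libraries labelled tamoxifen. For S100a11 the 4 shares lay between 68.9% and 70.5%. The 10% of cells with most UMIs held 52.3% to 69.8% of the S100a6 UMIs but 38.2% to 40.0% of those of S100a11. The share with an S100a14 UMI was 31.7% and 42.5% (vehicle) and 31.9% and 32.7% (labelled tamoxifen), against 1.67% and 0.952% in neutrophil-like cells. The share with an S100g UMI was 31.1% to 37.4%, against 0.714% and 1.17% in neutrophil-like cells. Thinning left out 70, 124, 10 and 48 epithelial-like cells (vehicle before and after, labelled tamoxifen before and after), and median depths before thinning were 16227 to 28355 UMIs. Unthinned shares were higher, from 65.1% to 81.1% for S100a6 and 64.1% to 74.3% for S100a14.

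The treatment comparison set the libraries labelled tamoxifen against vehicle. A gene was counted as apart between treatments when at least 1 library of both pairs held 10 CPM and the ratio was 2-fold or more, with the same sign before and after depletion. Of all 9024 genes that reached the minimum, 139 (1.54%) were apart, 40 higher (0.443%) and 99 lower (1.1%) in the libraries labelled tamoxifen. Of the 10 members 7 reached the minimum, and 0 of those 7 were apart. S100a4, S100a8 and S100a9 did not reach it in the pair after depletion. In the pair before depletion alone S100a9, at 14.9 and 34.0 CPM, was over 2-fold higher, a log2 ratio of 1.14. Without cells holding Ptprc or neutrophil markers other than Hdc it gave 0.30. The S100a9 ratio in that pair became -0.59 with every cell weighted equally, and was also negative with a gate on each cell. Taken alone, that pair had 1 member apart (all genes 2.07%) and the pair after depletion 0 (all genes 2.08%). The pairs are portions of the same suspensions and do not replicate each other. Of the 139 genes 28.8% were higher, which became 39.1% with each cell weighted equally. The share became 42.6% with the clusters of at least 50 cells in every library weighted equally, and 60.4% without clusters 8 and 23.

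S100a6 and S100a14 had the largest differences among the 7. S100a6 stood at 1992 and 2480 CPM in the vehicle libraries before and after depletion against 1367 and 1397 CPM with the tamoxifen label. Both vehicle values lay above both others, with a log2 ratio of -0.54 (exact conditional binomial 95% interval -0.56 to -0.53) before and -0.83 (-0.84 to -0.82) after depletion. S100a14 stood at 456 and 675 CPM against 397 and 364 CPM, with a log2 ratio of -0.20 (-0.23 to -0.16) before and -0.89 (-0.91 to -0.87) after depletion. S100a10 gave -0.13 and -0.39 and S100a16 gave -0.13 and -0.44, both lower in the libraries labelled tamoxifen in each pair. Before depletion these signs did not hold under every alternative: the ratio turned positive in 3 of 14 for S100a10 (up to 0.34) and in 2 of 14 each for S100a16 (up to 0.31), S100a6 (up to 0.22) and S100a14 (up to 0.19). S100a1 gave -0.01 and -0.06. S100a11 gave 0.10 and -0.08 and S100g gave -0.08 and 0.08, opposite signs in the 2 pairs. The median over the 7 members was -0.13 before and -0.39 after depletion, beside -0.03 and 0.01 over all 9024 genes. Of S100a6's size or larger, either way, were 6.18% of all genes before and 2.78% after depletion, and of S100a14's 39.4% and 2.44%.

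The clusters were represented unequally. Cluster 8, where S100a6 was at 2972 CPM, made up 12.4% and 17.02% of epithelial-cluster cells in the vehicle libraries before and after depletion and 1.198% and 1.45% in those labelled tamoxifen. Clusters 22 and 23, where S100a6 was at 516 and 579 CPM, were larger in the libraries labelled tamoxifen, with 224 and 1471 cells against 50 and 407 for cluster 22. Cluster 15, where S100a6 was lowest at 148 CPM, was smaller there too, at 17.8% and 16.5% against 33.3% and 24.9%. The 6 clusters of the class with 50 cells in every library were also weighted equally, which left out clusters 8 and 23 altogether. S100a6 then gave log2 ratios of 0.01 before and -0.20 after depletion, and S100a14 gave 0.02 and -0.61.

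Within single clusters after depletion, S100a14 was lower in the library labelled tamoxifen in 9 of 9 clusters, with a median log2 ratio of -0.59 (-1.20 to -0.05). Before depletion it was lower in 4 of 7 clusters (-0.64 to 0.42), so the sign did not hold across the pairs. S100a6 was lower in 7 of 9 clusters after and 3 of 7 before depletion. In cluster 17, the cycling-like cells, S100a6 stood at 1601 and 1549 CPM (vehicle before and after) against 875 and 734 CPM (labelled tamoxifen), ratios of -0.87 and -1.08. In cluster 12 it went the other way, at 6132 and 6647 CPM against 7855 and 7725 CPM, ratios of 0.36 and 0.22. S100g also split by cluster: in cluster 15 it stood at 772 and 728 CPM (vehicle) and 1061 and 1124 CPM (labelled tamoxifen), and in cluster 22 at 54.5 and 47.5 CPM and 74.6 and 99.9 CPM. In cluster 12 S100g stood at 19.6 and 34.0 CPM (vehicle) and 7.88 and 17.6 CPM (labelled tamoxifen). These cluster values hold in the same libraries and were not tested against a spread between animals.

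**Figure D4:**
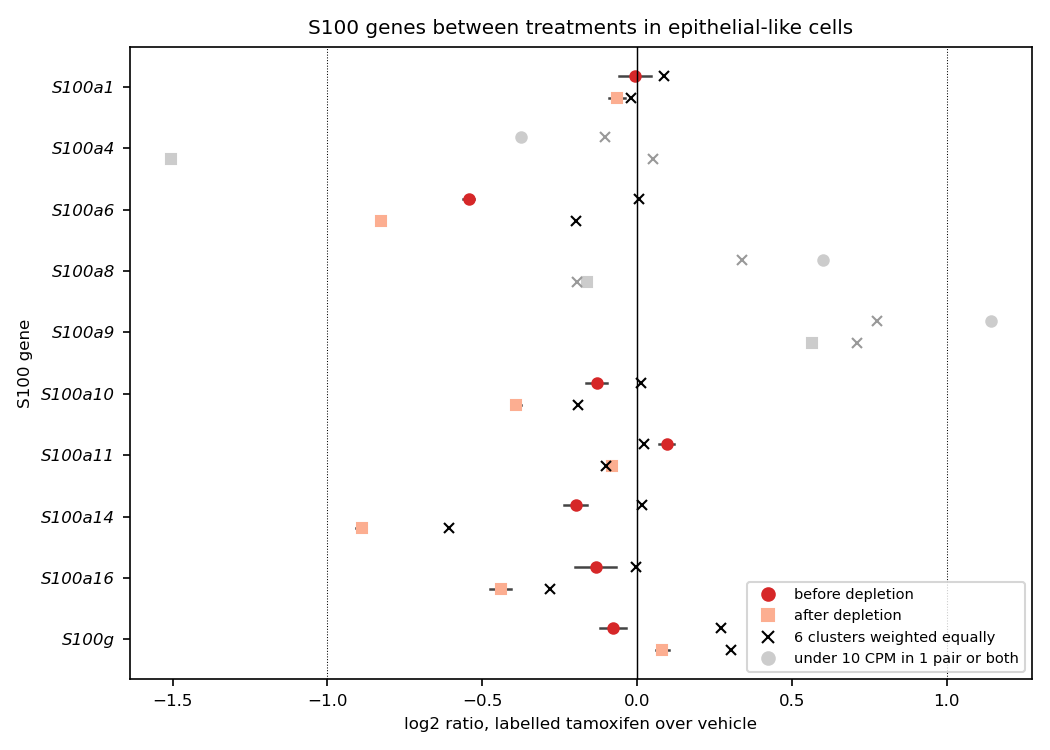
Log2 ratio of the library labelled tamoxifen over vehicle (x axis) for each S100 gene (y axis) in epithelial-like cells, before (circles) and after (squares) depletion, with 95% counting intervals as lines; crosses weight 6 clusters equally, grey points are genes under 10 CPM in a pair, and dotted lines mark 2-fold. The S100a6 crosses lie at 0.01 and -0.20, nearer 0 than its points at -0.54 and -0.83. Clusters 8 and 23 are left out of the crosses.

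The other classes were compared in the pair before depletion alone, under the same minimum and the same 2-fold size. In neutrophil-like cells 0 of 7 members were apart (all genes 4.22%): S100a8 gave a log2 ratio of -0.02 (-0.04 to 0.01), S100a9 -0.01 (-0.03 to 0.00), S100a6 0.20 and S100a11 0.21. For S100a8 and S100a9 the class sums clusters 24 and 19, which went opposite ways. S100a8 stood at 30691 (vehicle) and 42806 CPM (labelled tamoxifen) in cluster 24, but at 9844 and 7437 CPM in cluster 19. S100a9 stood at 61586 and 78702 CPM against 14972 and 12626 CPM. S100a4, at 45.1 and 76.8 CPM, gave the largest, 0.75 (0.40 to 1.14). In alveolar macrophage-like cells 0 of 7 members were apart (all genes 0.878%), with S100a8 at -0.46 and S100a1 at -0.02. In NK-like cells 0 of 8 members were apart (all genes 15.7%, from 132 and 91 cells).

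In monocyte or macrophage-like cells 2 of 7 members were apart, both lower in the library labelled tamoxifen (all genes 0.693%). S100a8 stood at 60.4 CPM (vehicle) and 24.9 CPM (labelled tamoxifen), a log2 ratio of -1.24 (-1.47 to -1.09), and S100a9 at 81.7 and 29.9 CPM, a ratio of -1.42 (-1.63 to -1.28). The 5 cells with most held 48.8% of the S100a9 UMIs in each library. Summed neutrophil markers stood at 831 and 715.5 CPM, with none of the 10 markers at 0. In dendritic-like cells 2 of 8 members were apart (all genes 1.26%), S100a8 at 28.6 and 8.08 CPM and S100a9 at 33.0 and 14.1 CPM. A single dendritic-like cell of the vehicle library held 147 of its 325 S100a8 UMIs and 115 neutrophil marker UMIs, against a class median of 12, and the summed markers stood at 1329 and 795 CPM. For each neutrophil marker UMI, monocyte or macrophage-like cells held 0.0983 and 0.0417 S100a9 UMIs (vehicle and labelled tamoxifen). Dendritic-like cells held 0.0248 and 0.0177, and neutrophil-like cells 1.51 and 2.08. Which of the 10 markers made up the sums in monocyte or macrophage-like and dendritic-like cells was not examined. These ratios therefore need not measure neutrophil RNA. The part of neutrophil RNA in the differences of the monocyte or macrophage-like and dendritic-like cells was not tested.

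In B-like cells 3 of 8 members were apart, all lower (all genes 5.67%): S100a8 (-2.88), S100a9 (-3.19) and S100g (-1.4985, from 36 and 5 UMIs). The cell that held 65.7% of the S100a9 UMIs is the one described above, and summed neutrophil markers stood at 859 and 142 CPM. In fibroblast-like cells 3 of 10 were apart (all genes 5.48%): S100a8 (-1.59) and S100a9 (-1.24) were lower, where neutrophil markers stood at 346 and 110 CPM, and S100g was higher, at 1.42 CPM (4 UMIs) against 65.5 CPM (110 UMIs), a ratio of 4.78 (4.13 to 7.43). Of those 110 UMIs 100 were in 1 cell, which also held 4257 UMIs of the surfactant gene Sftpc against a class median of 4. In T-like cells 1 of 9 was apart (all genes 1.76%), S100g at 8.69 and 27.7 CPM, where 5 of 719 cells held 86.6% of the UMIs in the library labelled tamoxifen and epithelial markers stood at 2551 and 3240 CPM. In endothelial-like cells 2 of 10 were apart (all genes 4.17%), S100a14 at 31.0 and 5.54 CPM and S100g at 4.31 and 10.5 CPM (10 and 19 UMIs). There 5 cells held 93.1% of the 72 S100a14 UMIs of the vehicle library, and epithelial markers stood at 2008 and 4692 CPM. The part of other cells' RNA in these differences was not tested.

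**Figure D5:**
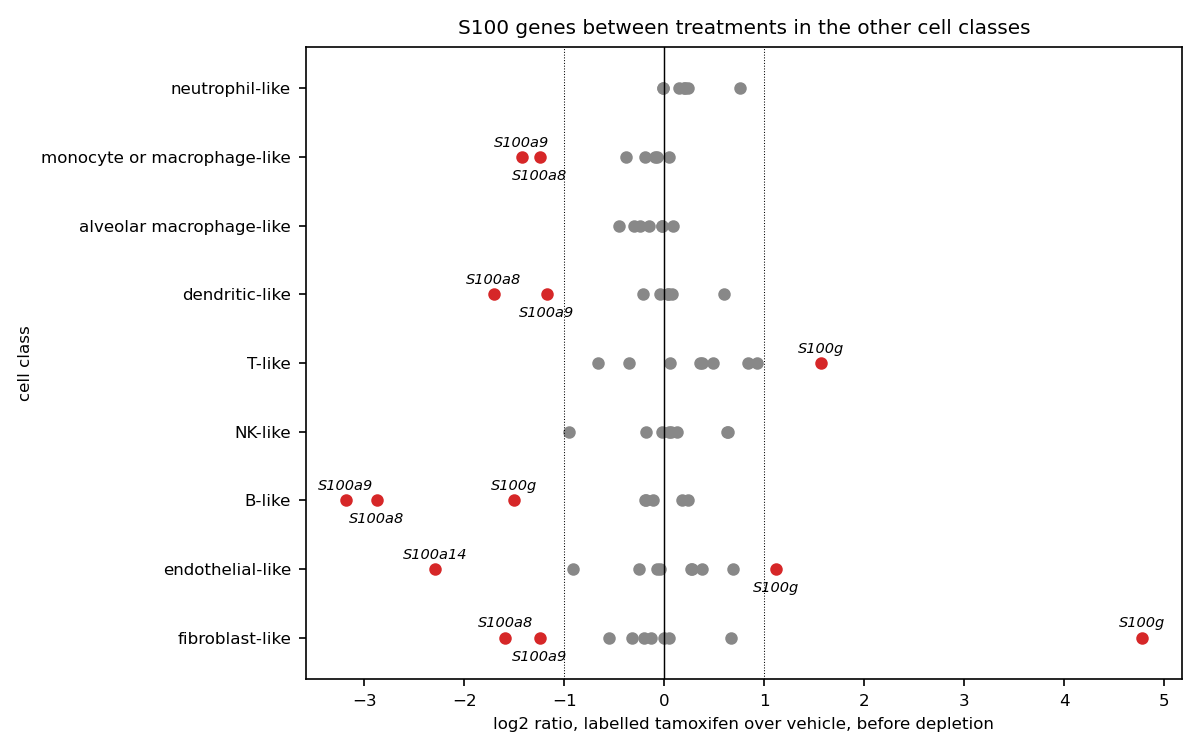
Log2 ratio of the library labelled tamoxifen over vehicle before depletion (x axis) for the S100 genes that reached 10 CPM, in 9 cell classes (y axis); each point is 1 gene, and red points with a name are at least 2-fold apart (dotted lines). S100a8 and S100a9 lie near 0 in neutrophil-like cells, at -0.02 and -0.01, and at -1.24 and -1.42 in monocyte or macrophage-like cells. The neutrophil-like points of these genes sum clusters 24 and 19, which went opposite ways.

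After depletion only endothelial-like and fibroblast-like cells could be compared outside the epithelium. In endothelial-like cells S100a14 (104.5 and 39.0 CPM) and S100g (35.5 and 8.91 CPM) were at least 2-fold lower in the library labelled tamoxifen (all genes 5.25%). In fibroblast-like cells the same 2 genes were lower, S100a14 at 137 and 48.6 CPM and S100g at 59.3 and 20.1 CPM (all genes 4.86%). Summed epithelial markers in fibroblast-like cells stood at 15236 and 7223 CPM in those 2 libraries, with none of the 10 markers at 0, and at 404 and 6565 CPM before depletion. In endothelial-like cells after depletion they stood at 7336 and 4040 CPM. Before depletion S100g in fibroblast-like cells stood at 1.42 CPM (vehicle) and 65.5 CPM (labelled tamoxifen). Most UMIs behind the latter value were in the single Sftpc-high cell described above. The part of epithelial RNA in these differences was not tested. S100a6 in fibroblast-like cells differed little between treatments, at 3353 and 3469 CPM after depletion, a ratio of 0.05 (-0.003 to 0.10), and S100a4 at 714 and 704 CPM.

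Related genes and partners were taken as whole lists. Of the 8 other S100 family symbols, S100a13 and S100pbp reached the minimum in epithelial-like cells and 0 of 2 were apart; S100a13 stood at 114 and 116 CPM (vehicle before and after) and 121 and 120.5 CPM (labelled tamoxifen). Of 18 binding partners and receptors 15 reached it and 0 were apart, with median log2 ratios of -0.02 before and -0.08 after depletion. Anxa1, the partner of S100a11, gave 0.16 and -0.13, and Anxa2, the partner of S100a10, 0.04 and -0.16. Cacybp, the partner of S100a6, gave -0.14 and -0.40. Plgrkt, a plasminogen receptor, came closest to the limit, at 102 and 125 CPM (vehicle) against 54.5 and 57.4 CPM (labelled tamoxifen), ratios of -0.90 and -1.10. Of the calprotectin receptors, Tlr4 stood at 507 and 629 CPM in neutrophil-like cells and at 27.9 to 41.9 CPM in epithelial-like cells. Ager, a gene of alveolar type 1 cells, stood at 784 to 937 CPM in epithelial-like cells and at 8.06 and 12.7 CPM in neutrophil-like cells.

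The genes most like each member were found by Pearson correlation of log2(CPM + 1). Over 27 class and library sums, S100a8 and S100a9 were each other's nearest gene (r = 0.99), followed by Csf3r, the granulocyte colony-stimulating factor receptor (r = 0.96 for S100a8). S100a14 was nearest to the tight-junction gene Cldn4 (r = 0.97) and S100g to the surfactant protein genes Sftpd (r = 0.98) and Sftpa1 (r = 0.97). S100a16 was nearest to Tspan12 and the caveolar gene Cavin1 (both r = 0.98). Over the 36 sums of epithelial clusters, S100a6 and S100a14 were both nearest to the keratin Krt8 (both r = 0.96), S100a11 was nearest to Krt7 (r = 0.96), and S100a10 was nearest to Slc25a24 (r = 0.97). S100a4 was nearest there to Mrc1 (r = 0.83), a macrophage mannose receptor gene. The sums share libraries, depth and cells, so these values describe likeness in these 4 libraries alone.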

How the data were processed

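Single-cell RNA libraries (10x 3′) were deposited as UMI counts per gene and cell barcode, raw and not normalized, per the file headers; Cell Ranger 7.0.1 is named in the headers and 7.2.0 in the submitters' processing notes. Intron and strand use are not given in the sources used here, and 1 allele of the genotype is not named. Barcodes under 200 genes or over 20% mitochondrial UMIs were left out. Scrublet doublets (score over 0.25) were removed. Clustering (scanpy 1.11.5, igraph 0.11.9, 2000 variable genes without S100 genes, 40 components, 15 neighbours, Leiden resolution 1) gave 32 clusters, named where at least 3 fixed markers were each in 10% of cells. Levels are summed UMIs per class and library in CPM, for at least 20 cells, with exact Poisson 95% intervals. Ratios needed 50 cells per library and used a pseudocount of 1 CPM. No p-value was computed because each group had 1 library. All 10 members are named by rule. The members and gene lists were chosen with earlier results of these data known. The code of the size rule was tested on simulated data; this says nothing of the spread between animals. Gene positions are from GENCODE M21, where 32158 of 32289 feature IDs matched. Alternatives changed scaling (edgeR 4.0.16 TMM, median of ratios), weighting, pseudocount, minimum, fold, doublet removal, gating and the clusters included.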

Additional observations from a re-analysis of the deposited data

Results flagged for a closer look

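In epithelial-like cells S100a11 and S100g each had opposite signs in the 2 pairs of libraries. The log2 ratio of the library labelled tamoxifen over vehicle was 0.0958 before and -0.0797 after depletion for S100a11, and -0.0766 before and 0.0819 after depletion for S100g. S100g also differed in sign between other cell classes before depletion. It was 1.57 in T-like, 1.12 in endothelial-like and 4.78 in fibroblast-like cells, and -1.4985 in B-like cells. These ratios rest on few UMIs (36 and 5 in B-like cells) or on UMIs held mostly by few cells, as given above. The sign in B-like cells reversed without doublet removal. These differences between pairs or classes were not tested.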

How the results depend on the processing

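No paired analysis was possible because each group held 1 library, and no library could be left out. In epithelial-like cells 0 members were at least 2-fold apart in both pairs under every alternative run. The pair before depletion taken alone, an alternative chosen after seeing the data, gave 1 (S100a9). The S100a9 ratio in that pair, 1.14, reversed to -0.59 with every cell weighted equally and was also negative with a gate on each cell. Without doublet removal the count of members apart became 5 in NK-like (0 with removal), 3 in T-like (1), 2 in alveolar macrophage-like (0) and 0 in monocyte or macrophage-like cells (2). With every cell weighted equally it became 0 in T-like, 0 in dendritic-like (2), 1 in endothelial-like (2) and 1 in fibroblast-like cells (3). A pseudocount of 10 CPM gave 1 in dendritic-like and 1 in endothelial-like cells. The share of all genes apart was not computed for these classes under these alternatives, so the counts have no background beside them. With the main settings that share was already 15.7% in NK-like cells. The log2 ratio of S100g in B-like cells reversed to 0.78 without doublet removal, and that of S100a9 in fibroblast-like cells to 0.0231 with every cell weighted equally; the cause was not tested. Over the alternatives, the ratio after depletion in epithelial-like cells ranged from -0.84 to -0.20 for S100a6 and from -0.91 to -0.61 for S100a14. Before depletion it turned positive without cells holding Ptprc or neutrophil markers for S100a6 (0.22), S100a14 (0.19), S100a10 (0.34) and S100a16 (0.31). That filter kept 297 of the 1012 epithelial-like cells with vehicle and 248 of the 970 labelled tamoxifen. With Hdc not counted among the markers, 651 and 647 cells remained. S100a6 and S100a14 then stayed negative, and S100a10 and S100a16 were positive. Of all genes, 40 were higher and 99 lower; these became 36 and 56 with every cell weighted equally, 14 and 30 with a pseudocount of 10 CPM, 21 and 70 with a gate on each cell, 26 and 35 with clusters weighted equally, 18 and 63 without cells holding Ptprc or neutrophil markers, 61 and 40 without clusters 8 and 23, 60 and 187 with no minimum, 10 and 8 at 100 CPM, 116 and 206 at 1.5-fold and 4 and 14 at 4-fold. Few cells limit the precision in NK-like cells (132 and 91).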

Other observations

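Ciliated-like cells were too few for a level per library, at 38 in all 4 libraries together. Summed over the libraries they held S100a11 at 2493 CPM, S100a6 at 2067 CPM and S100a1 at 772 CPM. S100a10 stood at 426 CPM, S100a14 at 112 CPM, S100a16 at 53.8 CPM and S100g at 41.5 CPM. S100a4, S100a8 and S100a9 had no UMI in these cells, where 38 cells allow little to be seen.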
